A study of Homo sapiens with 6 samples.

Results

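The genes HRH1, PAQR4, YES1, HIPK1, DLG3, SDCBP and DCAF17 had more RNA with NEK7 siRNA than with control siRNA in both pancreatic cancer cell lines studied, and each stood at least 1.5-fold above control with NEK6 siRNA in CFPAC, KP3 or both. They were selected on exactly those differences, so their siRNA values are a description and carry no test. They are 7 of the 33097 gene records measured, and all 7 are among the 14582 genes with an FPKM (fragment counts scaled to transcript length and library size) of at least 1 in at least 1 library. HRH1 and DCAF17 reached that level only in knockdown libraries, so they entered the tested genes through values used in their selection. The RNA came from CFPAC and KP3, established human pancreatic cancer cell lines, and gave 6 libraries. Each line received siRNA against NEK7, siRNA against NEK6 or a control siRNA, and each combination of line and siRNA was sequenced once. The control libraries are titled as control siRNA, with WT as their genotype and treatment tags, and the labels used here give no siRNA sequence, dose or time after transfection. There are no replicate libraries, so the intervals below cover counting error only.

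The 7 proteins are not known members of 1 pathway. HRH1 is a cell surface receptor for histamine that acts through G proteins of the Gq class, and PAQR4 is a membrane protein of the progestin and adipoQ receptor family. YES1 is a tyrosine kinase of the SRC family and HIPK1 a nuclear serine/threonine kinase that binds homeodomain proteins. DLG3 and SDCBP are scaffolds with PDZ domains, which hold membrane proteins together, and DCAF17 is a substrate receptor of the CUL4-DDB1 ubiquitin ligase. NEK6 and NEK7, the kinases the siRNAs target, are close relatives that act in mitosis, and NEK7 is also a binding partner of NLRP3 in the inflammasome.

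The start regions of 3 of the genes are shown because DCAF17 was the gene nearest to PAQR4 in its 4 siRNA differences and HRH1 had the largest ratios. The windows run from 250 bases before to 50 bases after a RefSeq start site in GRCh38.p14, and capitals mark matches, on either strand, to the words searched. HRH1 is the first of 3 RefSeq windows of the gene, at chr3:11136988-11137287 on the plus strand, and which start was used in these cells was not measured. PAQR4 is at chr16:2969098-2969397 and DCAF17 at chr2:171433976-171434275, both on the plus strand.
HRH1: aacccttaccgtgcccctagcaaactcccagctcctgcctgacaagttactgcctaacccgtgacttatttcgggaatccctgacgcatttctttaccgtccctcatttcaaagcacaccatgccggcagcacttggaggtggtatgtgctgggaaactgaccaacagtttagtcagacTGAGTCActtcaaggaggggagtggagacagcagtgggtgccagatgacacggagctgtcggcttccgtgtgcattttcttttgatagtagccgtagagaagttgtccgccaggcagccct
PAQR4: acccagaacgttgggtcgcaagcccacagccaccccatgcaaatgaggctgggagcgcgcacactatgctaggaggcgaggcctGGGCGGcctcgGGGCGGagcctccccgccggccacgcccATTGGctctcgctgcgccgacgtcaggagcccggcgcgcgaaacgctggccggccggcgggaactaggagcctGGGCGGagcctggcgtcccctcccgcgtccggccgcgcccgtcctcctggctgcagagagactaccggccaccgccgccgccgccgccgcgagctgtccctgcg
DCAF17: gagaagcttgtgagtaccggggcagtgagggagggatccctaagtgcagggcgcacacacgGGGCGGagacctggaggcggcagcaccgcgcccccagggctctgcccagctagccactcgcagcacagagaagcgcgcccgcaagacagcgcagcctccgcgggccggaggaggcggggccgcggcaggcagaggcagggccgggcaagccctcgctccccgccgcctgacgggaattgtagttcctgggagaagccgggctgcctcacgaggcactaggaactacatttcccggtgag

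The words searched were the TATA box word TATAAA, the CCAAT word, the GC box GGGCGG, the E-box CACGTG, the AP-1 word TGACTCA and the ETS word CCGGAAG, and no marked matches overlap in the windows shown. The HRH1 window shown holds 1 match to TGACTCA on the minus strand 71 bases before the start, and no GGGCGG, which window 2 of the gene does hold. PAQR4 holds 3 matches to GGGCGG and 1 to CCAAT on the minus strand, and DCAF17 holds 1 to GGGCGG. Windows were found for 6 of the 7 genes, 12 in all, and each of the 6 had GGGCGG in at least 1 window. HRH1, HIPK1 and DLG3 had 3 windows each, and the share of all genes with the word in any window was not computed. GGGCGG was in 7 of the 12 windows (58.3%) and in 45.0% of all 35116 RefSeq promoter windows, CCAAT in 5 (41.7%) and 34.6%, and TGACTCA in 2 (16.7%) and 4.95%. TATAAA was in 1 (11.5% of all windows), CCGGAAG in 1 (10.3%) and CACGTG in 0 (7.26%). No word was in all 12 windows, and a match is a description of the letters only.

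The libraries held 59478910 to 66067379 counts, of which mitochondrial genes took 11.4% to 17.9%. With NEK7 siRNA, NEK7 had 2.40 FPKM in CFPAC and 5.79 FPKM in KP3, against 14.8 and 14.7 with control siRNA. NEK6 had 4.09 and 6.98 FPKM with NEK6 siRNA, against 15.2 and 21.3 with control siRNA, so each target was lower in its own libraries. All 6 markers of ductal epithelium looked at were detected, with a summed FPKM of 520 to 624 in CFPAC and 1222 to 1349 in KP3. Most of it was KRT8, KRT18 and KRT19, while KRT7 had 0.817 to 1.67 FPKM. The leukocyte markers summed to 50.5 to 78.8 FPKM, almost all of it CD68 with PTPRC at 0.0420 FPKM or less, and the fibroblast and endothelial markers to 4.48 to 7.16 FPKM.

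HRH1 (ENSG00000196639) is on the plus strand of chromosome 3, from 11137093 to 11263557 in the deposited coordinates. In CFPAC it had 4.15 FPKM (1734 counts) with NEK7 siRNA, 1.06 FPKM (446 counts) with NEK6 siRNA and 0.0640 FPKM (25 counts) with control siRNA. In KP3 it had 2.19 FPKM (952 counts), 1.73 FPKM (690 counts) and 0.0491 FPKM (21 counts) with NEK7, NEK6 and control siRNA. The receptor RNA was close to undetected in both control libraries, where only 3.0% and 4.60% of the tested genes were lower, and all 4 knockdown libraries lay far above them. Those shares leave out genes that were low in every library, and HRH1 was kept only through its knockdown libraries, so they are a description only. In bulk RNA, more cells with a transcript and more of it per cell cannot be told apart. With NEK7 siRNA, 51.5% of tested genes were below it in CFPAC and 36.4% in KP3. The ratio of NEK7 to control siRNA was 64.9 in CFPAC (95% counting interval 43.7 to 96.3) and 44.5 in KP3 (28.9 to 68.6). With NEK6 siRNA it was 16.6 (11.1 to 24.9) and 35.3 (22.9 to 54.5). These wide intervals come from the 25 and 21 control counts. NEK7 over NEK6 siRNA was 3.91 in CFPAC (3.52 to 4.33) and 1.26 in KP3 (1.14 to 1.39).

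PAQR4 (ENSG00000162073) is on the plus strand of chromosome 16, from 2969270 to 2973482. In CFPAC it had 18.2 FPKM (4044 counts) with NEK7 siRNA, 17.3 FPKM (3840 counts) with NEK6 siRNA and 4.73 FPKM (970 counts) with control siRNA. In KP3 it had 18.1 FPKM (4175 counts), 4.65 FPKM (984 counts) and 4.57 FPKM (1033 counts) with the same siRNAs. PAQR4 therefore lay at a pair of levels with nothing between them. In CPM (counts scaled to a common library size), 3 libraries, both controls and KP3 with NEK6 siRNA, held 16.1 to 16.3, and the other 3 held 59.8 to 63.2. The gap between the levels was 3.67-fold, while the libraries within a level differed by 1.02-fold and 1.06-fold. NEK6 over control siRNA was 3.65 in CFPAC (3.41 to 3.92) and 1.02 in KP3 (0.932 to 1.11), the only one of the 28 siRNA to control ratios of the 7 genes whose counting interval reaches 1. The PAQR4 transcript overlaps PKMYT1, a kinase gene on the opposite strand. Of the 50-base words in its longest coding transcript, 39.8% also occur in PKMYT1 read on either strand, and no source used here says whether the counts respect strand. PKMYT1 itself was lower than with control siRNA in all 4 knockdown libraries, by 0.30 (CFPAC) and 0.18 (KP3) with NEK7 siRNA and by 0.50 and 0.25 with NEK6 siRNA on the log2(FPKM + 1) scale.

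YES1 (ENSG00000176105) is on the minus strand of chromosome 18, from 721588 to 812546. CFPAC cells had 33.0 FPKM (12664 counts) with NEK7 siRNA, 9.76 FPKM (3760 counts) with NEK6 siRNA and 7.95 FPKM (2824 counts) with control siRNA. KP3 cells had 16.1 FPKM (6456 counts), 14.4 FPKM (5275 counts) and 4.37 FPKM (1708 counts) with NEK7, NEK6 and control siRNA. All 4 knockdown libraries lay above both controls, but the CFPAC library with NEK6 siRNA only a little. NEK7 over control siRNA was 4.15 in CFPAC (3.98 to 4.32) and 3.69 in KP3 (3.50 to 3.89). NEK6 over control siRNA was 1.23 in CFPAC (1.17 to 1.29) and 3.30 in KP3 (3.12 to 3.48). YES1 has a processed pseudogene, YES1P1, which had at most 19 counts in any library.

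HIPK1 (ENSG00000163349) is on the plus strand of chromosome 1, from 113929324 to 113977869. CFPAC cells held 6.27 FPKM (4323 counts) with NEK7 siRNA, 5.78 FPKM (3996 counts) with NEK6 siRNA and 1.88 FPKM (1201 counts) with control siRNA. KP3 cells held 6.90 FPKM (4959 counts), 6.85 FPKM (4501 counts) and 1.94 FPKM (1364 counts) with NEK7, NEK6 and control siRNA. HIPK1 lay at 1 level in the controls and at another in all knockdown libraries: both controls held 20.2 to 21.2 CPM and the 4 knockdown libraries 62.2 to 75.1. NEK7 over control siRNA was 3.33 in CFPAC (3.13 to 3.55) and 3.55 in KP3 (3.35 to 3.77). NEK6 over control siRNA was 3.07 (2.88 to 3.28) and 3.53 (3.32 to 3.75). In KP3 the NEK7 and NEK6 libraries could not be told apart, with a ratio of 1.01 (0.968 to 1.05). Its antisense record HIPK1-AS1 had 13, 8 and 14 counts in CFPAC and 89, 53 and 35 counts in KP3 with NEK7, NEK6 and control siRNA, few beside those of HIPK1.

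DLG3 (ENSG00000082458) is on the plus strand of chromosome X, from 70444835 to 70505490. Its level in CFPAC was 14.2 FPKM (8440 counts) with NEK7 siRNA, 11.9 FPKM (7069 counts) with NEK6 siRNA and 3.86 FPKM (2120 counts) with control siRNA. Its level in KP3 was 6.0 FPKM (3709 counts), 4.84 FPKM (2736 counts) and 1.85 FPKM (1119 counts) with NEK7, NEK6 and control siRNA. The order NEK7, NEK6, control was the same in both lines, at a higher level in CFPAC each time. NEK7 over control siRNA was 3.69 in CFPAC (3.52 to 3.87) and 3.24 in KP3 (3.03 to 3.47), and NEK6 over control siRNA was 3.08 (2.93 to 3.23) and 2.62 (2.44 to 2.80).

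SDCBP (ENSG00000137575), which encodes syntenin, an adaptor that binds syndecans and takes part in exosome formation, is on the plus strand of chromosome 8, from 58552924 to 58582859. CFPAC cells had 67.9 FPKM (24435 counts) with NEK7 siRNA, 31.3 FPKM (11315 counts) with NEK6 siRNA and 24.0 FPKM (7982 counts) with control siRNA. KP3 cells had 47.0 FPKM (17627 counts), 41.1 FPKM (14090 counts) and 16.3 FPKM (5958 counts) with NEK7, NEK6 and control siRNA. It was the most abundant of the 7 per transcript length in every library, above 90.0% of tested genes in CFPAC and 84.4% in KP3 with control siRNA alone. NEK7 over control siRNA was 2.83 (2.76 to 2.90) in CFPAC and 2.89 (2.81 to 2.98) in KP3. NEK6 over control siRNA was 1.31 (1.27 to 1.35) in CFPAC and 2.53 (2.45 to 2.60) in KP3. Of the 50-base words in its longest coding transcript, 3.81% recur in its processed pseudogenes, of which SDCBPP3 had at most 25 counts.

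DCAF17 (ENSG00000115827), the gene mutated in Woodhouse-Sakati syndrome, is on the plus strand of chromosome 2, from 171434217 to 171485052. In CFPAC it had 2.40 FPKM (1389 counts) with NEK7 siRNA, 1.87 FPKM (1088 counts) with NEK6 siRNA and 0.400 FPKM (216 counts) with control siRNA. In KP3 it had 4.29 FPKM (2585 counts), 1.21 FPKM (670 counts) and 0.806 FPKM (477 counts) with NEK7, NEK6 and control siRNA. All 4 knockdown libraries lay above both controls, with the KP3 library of NEK6 siRNA nearest to them. NEK7 over control siRNA was 6.01 in CFPAC (5.20 to 6.93) and 5.32 in KP3 (4.83 to 5.87), the largest ratios after those of HRH1. NEK6 over control siRNA was 4.69 (4.06 to 5.43) in CFPAC and 1.5 (1.34 to 1.69) in KP3.

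**Figure D1:**
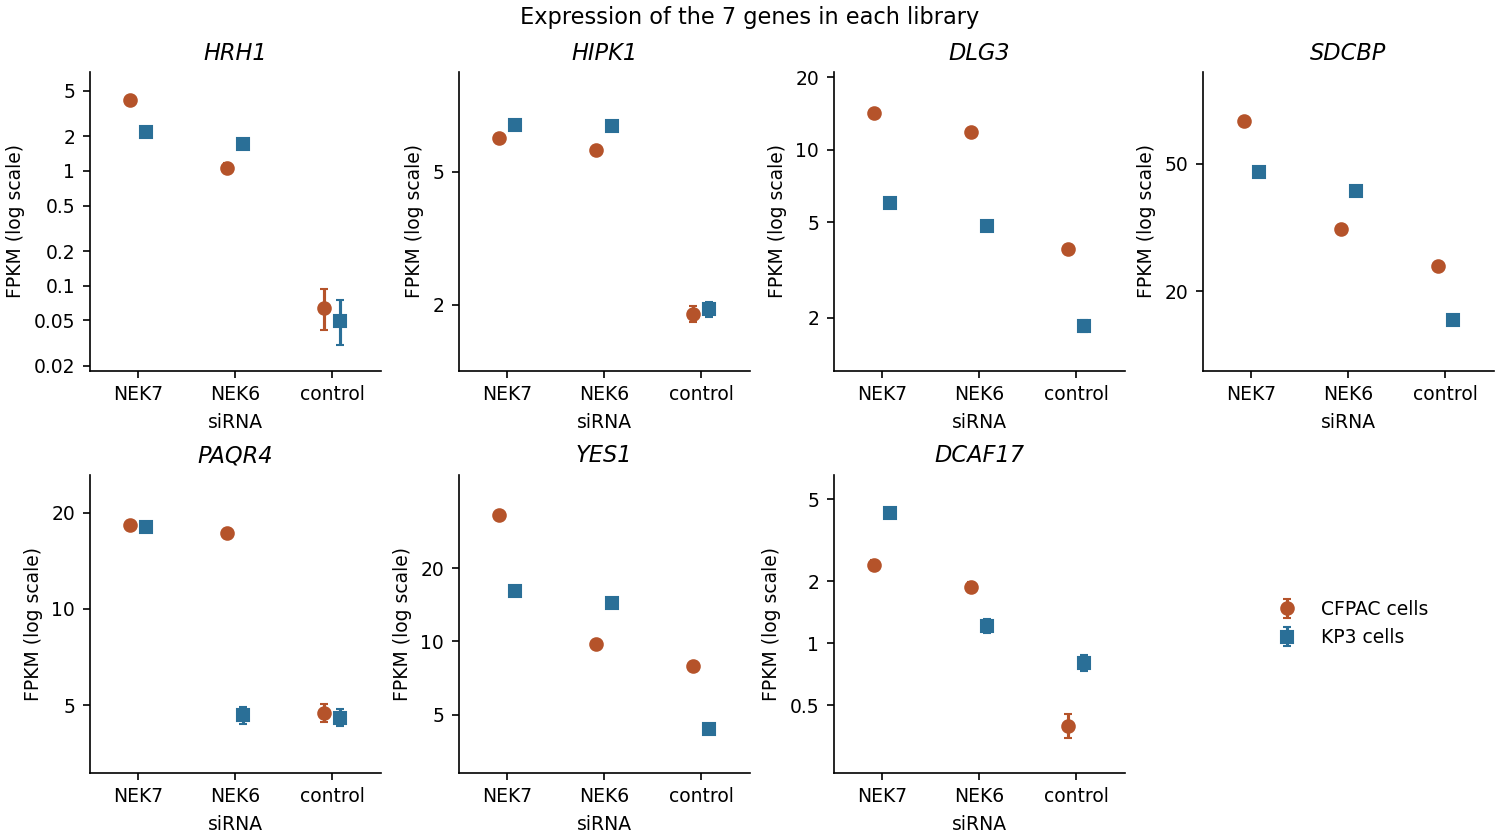
FPKM (log scale) of each of the 7 genes with NEK7, NEK6 and control siRNA, in CFPAC cells (circles) and KP3 cells (squares), 1 library a point, with 95% Poisson counting intervals as bars. HRH1 lies at 0.0640 and 0.0491 FPKM in the controls, and PAQR4 lies near its control level of 4.57 FPKM in KP3 with NEK6 siRNA (4.65 FPKM).

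Across the 7 genes the NEK7 to control ratio ran from 2.83 to 64.9 in CFPAC with a median of 3.86, and from 2.89 to 44.5 in KP3 with a median of 3.69. Over all 14582 tested genes, 0.638% were at least 1.5-fold higher with NEK7 siRNA in both lines, as all 7 of these genes were by their selection. That threshold was applied to log2(FPKM + 1), where the median difference of all tested genes was 0.03 in CFPAC and 0.01 in KP3. Ranked by the smaller of the 2 lines' differences on that scale, the 7 genes stood between position 3 (PAQR4, 1.75) and position 11 (DCAF17, 1.28). FP565260 (3.53) and RPS26P19 (3.33) lay above them at positions 1 and 2, SNORD14D (1.52) and HOXA3 (1.31) among them at positions 6 and 9, and TMEM120B (1.11) and NBPF15 (1.10) followed at positions 12 and 13.

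With NEK6 siRNA the lowest ratios to control came near 1 in each line. The ratio ran from 1.23 to 16.6 in CFPAC with a median of 3.08, and from 1.02 to 35.3 in KP3 with a median of 2.62. On the log2(FPKM + 1) scale 5 of 7 were at least 1.5-fold higher in CFPAC (HRH1, HIPK1, DLG3, PAQR4 and DCAF17), where 3.76% of all tested genes were. In KP3 it was also 5 of 7 (HRH1, HIPK1, DLG3, SDCBP and YES1), where 4.87% of all tested genes were. HRH1, HIPK1 and DLG3, 3 of 7, passed that size in both lines, as did 0.665% of all tested genes. These counts follow from the selection as well and are given for size only.

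The rise with NEK6 siRNA, in FPKM above the control, can be set against the rise with NEK7 siRNA in the same line. For HIPK1 it was 88.8% of the NEK7 rise in CFPAC and 99% in KP3, and for DLG3 77.3% and 72.0%, so both kinase and scaffold stood nearly as high with either siRNA in both lines. For YES1 it was 7.24% in CFPAC and 85.4% in KP3, for SDCBP 16.8% and 80.7%, and for HRH1 24.4% and 78.8%. For PAQR4 and DCAF17 the lines were the other way round, with 92.8% in CFPAC and 0.578% in KP3 for PAQR4 and 73.7% and 11.6% for DCAF17. The NEK7 and NEK6 comparisons use the same control library in each line. Whether a line changes the response to NEK6 siRNA was not tested, since a single library per combination leaves no spread to test it against.

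**Figure D2:**
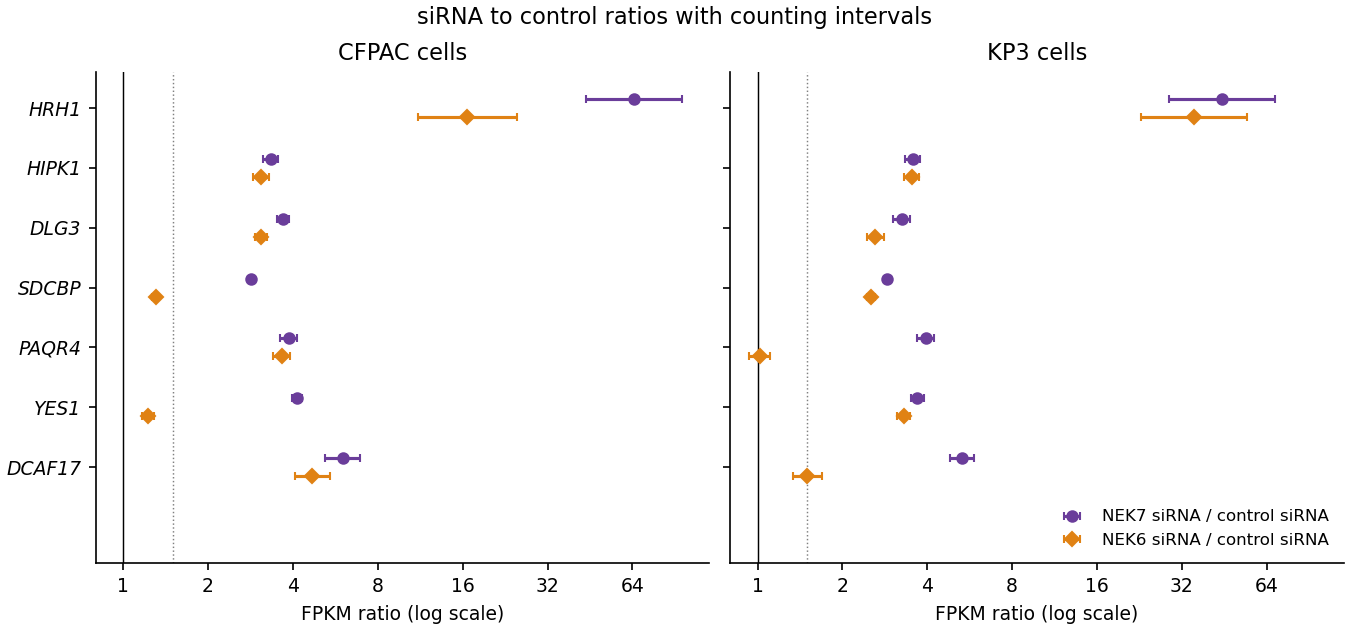
Ratio of FPKM with NEK7 siRNA (circles) and with NEK6 siRNA (diamonds) to control siRNA, log scale, in CFPAC cells (left) and KP3 cells (right), with 95% counting intervals. The solid line marks no difference and the dotted line 1.5-fold. The NEK6 points of SDCBP (1.31) and YES1 (1.23) are low in CFPAC, and those of PAQR4 (1.02) and DCAF17 (1.5) in KP3.

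By likeness of the 4 siRNA to control differences, several of the 7 genes were nearest to one another, as their selection on these differences favours. For HIPK1, SDCBP and DCAF17 the nearest gene was outside the 7 (TMEM120B, HOXA3 and NBPF15). The measure was the root mean square distance over 2 lines and 2 siRNAs on the log2(FPKM + 1) scale, among all tested genes with a name not given by clone. YES1 was nearest to SDCBP (0.28) and to HRH1 (0.39). PAQR4 was nearest to DCAF17 (0.43), then ARMCX5 (0.56), which differed by 0.76 and 1.46 with NEK7 siRNA and by 1.24 and -0.03 with NEK6 siRNA in CFPAC and KP3. HIPK1 and DLG3 lay 0.27 apart, and TMEM120B, a membrane protein gene, lay 0.23 from HIPK1 and 0.28 from DLG3 with differences of 1.17, 1.11, 1.22 and 1.13. HOXA3, a homeobox transcription factor gene, lay 0.26 from SDCBP, with differences of 1.48 and 1.31 with NEK7 siRNA and -0.05 and 1.05 with NEK6 siRNA. NBPF15 lay 0.32 from DCAF17, with 1.10 and 1.19, then 1.01 and 0.80. These 4 values per gene share their control libraries and served in the selection of the 7, so the distances are a description only.

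The difference between the lines was not used in the selection and was tested. The spread in that test comes from the same libraries, whose siRNA values the selection did use. The p-values of the 7 genes, that of DLG3 included, are therefore not free of the selection. DLG3 was higher in CFPAC than in KP3 under all 3 siRNAs, 2.37-fold with NEK7 siRNA, 2.46-fold with NEK6 siRNA and 2.09-fold with control siRNA. The log2 fold change of CFPAC over KP3 was 1.25 (SE 0.10) and passed edgeR's quasi-likelihood test with Benjamini-Hochberg adjustment over all genes (adjusted p = 0.000736). It passed without each library in turn too, with adjusted p between 0.00305 and 0.00676 by the same edgeR test. DLG3 was the 1 of the 7 that passed, while 56.4% of all tested genes did. The median size of the line difference was 0.36 over the 7 genes and 0.74 over all tested genes on the log2 scale. A gene raised in both lines has RNA in both, while a tested gene needed 1 FPKM in only 1 library. The share that passed and the median size are therefore not free of the selection either.

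The other 6 genes did not pass. HIPK1 had a log2 fold change of -0.10 (SE 0.10, edgeR adjusted p = 0.443), with ratios of CFPAC to KP3 of 0.909, 0.844 and 0.969 with NEK7, NEK6 and control siRNA. HRH1 had 0.23 (SE 0.37, edgeR adjusted p = 0.623), and its sign turned to -0.20 without the CFPAC library of NEK7 siRNA and to -0.22 without that of KP3. PAQR4 had 0.68 (SE 0.42, edgeR adjusted p = 0.225), made up of ratios of 1.01, 3.71 and 1.03 in the same order of siRNAs. For HRH1, SDCBP, YES1 and DCAF17 the ratio with NEK6 siRNA lay on the other side of 1 from the other ratios. HRH1 had 1.9 with NEK7 siRNA, 1.3 with control siRNA and 0.613 with NEK6 siRNA. SDCBP was 1.45-fold and 1.47-fold higher in CFPAC with NEK7 and control siRNA but had a ratio of 0.763 with NEK6 siRNA. YES1 had ratios of 2.05 with NEK7 siRNA, 1.82 with control siRNA and 0.678 with NEK6 siRNA, and DCAF17 0.559, 0.496 and 1.55 in that order. In the fit of all 6 libraries the log2 fold changes were 0.28 (SE 0.22, edgeR adjusted p = 0.317) for SDCBP, 0.50 (SE 0.34, adjusted p = 0.263) for YES1 and -0.36 (SE 0.36, adjusted p = 0.430) for DCAF17.

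Leaving out either library with NEK6 siRNA changed some of these calls. SDCBP then had 0.59 without the CFPAC library and 0.60 without the KP3 library (adjusted p = 0.0194 and 0.0197, edgeR). YES1 had 0.99 and 1.0 (adjusted p = 0.00837 and 0.00891, edgeR), and DCAF17 -0.88 and -0.87 (adjusted p = 0.0252 and 0.0220, edgeR). HRH1 had 0.76 and 0.76 and did not pass (adjusted p = 0.0810 and 0.0870, edgeR). These passes are no independent support for a line difference, because the libraries left out are those that went the other way and the spread that remains comes from NEK7 and control values, which the selection used. Over all libraries left out in turn, the edgeR adjusted p reached up to 0.743 for SDCBP, 0.703 for YES1 and 0.904 for DCAF17.

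**Figure D3:**
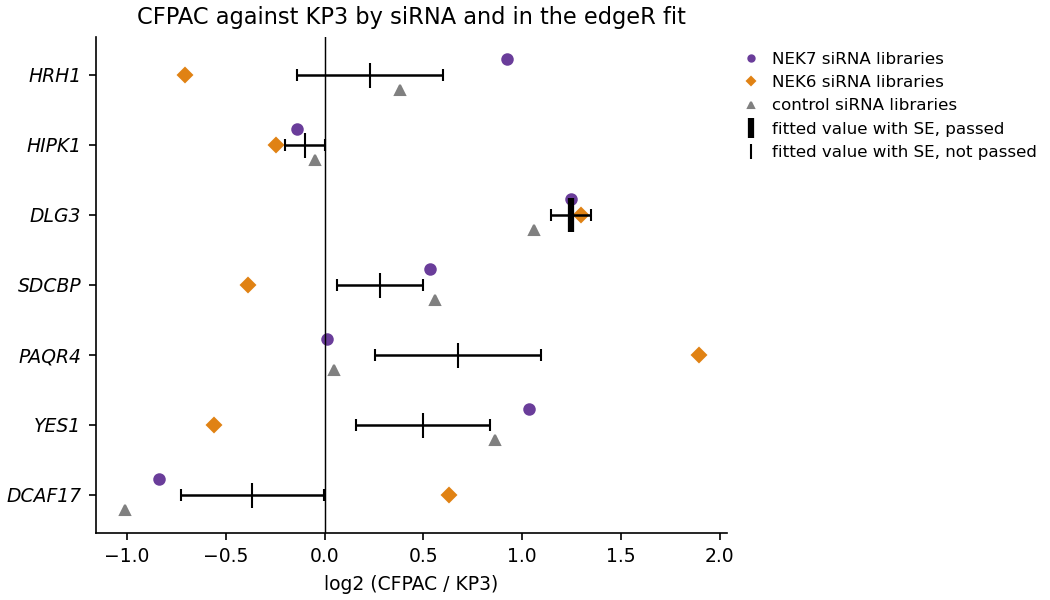
log2 ratio of CFPAC to KP3 for each gene, with NEK7 siRNA (circles), NEK6 siRNA (diamonds) and control siRNA (triangles), and the value fitted by edgeR over all 6 libraries (vertical tick) with its standard error (horizontal bar). DLG3 is the gene whose fitted value (1.25) passed, and the NEK6 diamonds of HRH1, SDCBP, YES1 and DCAF17 lie on the other side of 0 from the other 2 symbols.

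Related genes were not picked by the rule that chose the 7, and their siRNA contrasts were read from the same edgeR fit. Their lists were not made blind to these data, so the counts below are no independent test. No gene of the 14582 passed for NEK7 siRNA (0%) or NEK6 siRNA (0%) at an adjusted p of 0.05. That includes the targets: NEK7 had an edgeR log2 fold change of -1.93 with NEK7 siRNA (adjusted p = 0.492). NEK6 had -1.75 with NEK6 siRNA (edgeR adjusted p = 0.181). A gene that did not pass is therefore not shown to be unchanged. The smallest adjusted p was 0.173 with NEK7 siRNA and 0.181 with NEK6 siRNA, and 1372 and 1073 genes had an unadjusted p under 0.05 by edgeR. DESeq2 called 369 and 288 genes on the same counts and limma 0 and 0. The 77 tested relatives and partners of the 7 genes, from lists drawn up with earlier results of these data known, held 0 edgeR calls for either siRNA, 15 unadjusted p under 0.05 with NEK7 siRNA and 5 with NEK6 siRNA. Those are 19.5% and 6.49% of the 77, beside 9.41% and 7.36% of all tested genes. DESeq2 called 3 of them with NEK7 siRNA (SDC4, ADIPOR1 and PAG1) and 2 with NEK6 siRNA (DYRK1A and ITPR3), and limma none. At least 1.5-fold in both lines, 1 of 77 was higher with NEK7 siRNA, against 0.638% of all tested genes, and 1 was lower, against 0.754%. With NEK6 siRNA 0 of 77 were higher and 0 lower by that size, against 0.665% and 0.789% of all tested genes. By any amount in both lines, 24 of 77 were higher and 18 lower with NEK6 siRNA, beside 27.6% and 27.7% of all tested genes. With NEK7 siRNA 37 were higher and 17 lower (32 and 17 under median-ratio scaling), beside 33.9% and 25.6%. The median difference of the 77 with NEK7 siRNA was 0.08 in CFPAC and 0.05 in KP3, beside 0.03 and 0.01 for all tested genes. The 7 genes differed by 1.28 and above, where their selection had put them.

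Around HRH1, 8 other genes of histamine H1 signalling and histamine breakdown were tested, and 6 were higher with NEK7 siRNA in both lines (4 under median-ratio scaling) and 0 lower. Of all tested genes, 33.9% were higher with NEK7 siRNA in both lines and 25.6% lower (31.2% and 28.4% under median-ratio scaling). Of the 8, 4 had an unadjusted edgeR p under 0.05, as did 9.41% of all tested genes, and 0 passed the adjustment. HNMT, the enzyme that methylates histamine inside cells, differed on the log2(FPKM + 1) scale by 0.31 in CFPAC and 0.60 in KP3 with NEK7 siRNA, and by 0.37 and 0.49 with NEK6 siRNA. The Gq class subunits GNAQ (0.33 and 0.43) and GNA11 (0.60 and 0.33) and the calcium release channel ITPR2 (0.48 and 0.28) were also above control with NEK7 siRNA. HRH1 itself differed by 2.28 and 1.60.

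In the adiponectin and progestin receptor family around PAQR4, 5 of 8 relatives were lower with NEK7 siRNA in both lines and 1 was higher, beside 25.6% and 33.9% of all tested genes. ADIPOR1, a receptor for adiponectin, had 11 FPKM in CFPAC and 28.0 in KP3 with NEK7 siRNA, 20.03 and 42.6 with NEK6 siRNA, and 29.5 and 47.3 with control siRNA. Its level was thus lowest with NEK7 siRNA and between the others with NEK6 siRNA in both lines, while PAQR4 was highest with NEK7 siRNA. The edgeR log2 fold change of ADIPOR1 with NEK7 siRNA was -1.12 (SE 0.19, adjusted p = 0.452), which did not pass. PAQR6 differed by -0.61 and -0.47, PAQR7, a membrane progestin receptor, by -0.66 and -0.49, and MMD by -0.28 and -0.97 with NEK7 siRNA. The medians of the 8 relatives were -0.34 in CFPAC and -0.42 in KP3 with NEK7 siRNA, and -0.01 and -0.03 with NEK6 siRNA.

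Of the 11 tested syndecans, exosome factors and other partners of SDCBP, SDC4 had the largest difference. SDC4, a heparan sulfate proteoglycan whose tail binds syntenin, had 334 FPKM in CFPAC and 128 in KP3 with NEK7 siRNA, 262 and 61.6 with NEK6 siRNA, and 182 and 61.7 with control siRNA. Like SDCBP it was highest with NEK7 siRNA in both lines, but with NEK6 siRNA it was above control in CFPAC and level with it in KP3, whereas SDCBP was further above control in KP3. Its edgeR log2 fold change with NEK7 siRNA was 0.94 (SE 0.20, adjusted p = 0.487). SDC1 differed by 0.36 and 0.60 with NEK7 siRNA, PDCD6IP, which encodes the syntenin partner ALIX, by 0.32 and 0.13, and CD63, an exosome tetraspanin, by -0.24 and 0.06.

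Among 7 tested SRC relatives and regulators, 4 were higher in both lines with NEK7 siRNA and 1 lower, beside 33.9% and 25.6% of all tested genes, and 0 passed edgeR's test. SRC itself differed by 0.07 and -0.08 and LYN by 0.43 and 0.08, beside 1.92 and 1.67 for YES1 (SRC and LYN were added for their kinship after their values were seen). FRK differed by 0.34 and 0.58, and PTK6 by 0.14 in CFPAC and 1.0 in KP3. PAG1, an adaptor that brings the SRC inhibitor CSK to membranes, differed by -0.06 and -0.65. YAP1, the transcriptional coactivator named for its binding to YES1, differed by 0.54 and -0.35 with NEK7 siRNA and by 1.41 and 0.10 with NEK6 siRNA. Of these 7 relatives and regulators, 6 were higher in both lines with NEK6 siRNA and 1 lower, beside 27.6% and 27.7% of all tested genes.

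Around HIPK1, 6 HIPK and DYRK kinases were tested, of which 1 was higher and 2 lower in both lines with NEK7 siRNA, beside 33.9% and 25.6% of all tested genes. HIPK3 differed by -0.57 and -0.27, DYRK1A by -0.56 and -0.04 and DYRK1B by 0.21 and 0.24. DYRK2, a kinase that acts on p53, went opposite ways, with differences of -0.26 in CFPAC and 1.92 in KP3 with NEK7 siRNA. In KP3 it had 3.16 FPKM with NEK7 siRNA, 2.32 with NEK6 siRNA and 0.103 with control siRNA, and in CFPAC 4.50, 5.53 and 5.57. The KP3 control library thus stands apart from the other 5 for DYRK2.

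Around DLG3, 7 of 17 MAGUK and polarity scaffolds were higher in both lines with NEK7 siRNA (6 under median-ratio scaling) and 3 lower. TJP1, the tight junction protein ZO-1, differed by 0.35 and 0.34, DLG1 by 0.35 and 0.27, MPP6 by 0.27 and -0.48 and MAGI3 by -0.01 and 0.55. Of the 20 tested members of the CUL4-DDB1 ligase around DCAF17, 12 were higher in both lines with NEK7 siRNA (10 under median-ratio scaling) and 4 lower. The scaffold CUL4B differed by 0.97 in CFPAC and 0.06 in KP3, DCAF10 by -0.47 and 0.94, DCAF5 by -0.49 and -0.22 and DCAF6 by 0.17 and 0.32. Both lists stand beside 33.9% higher and 25.6% lower of all tested genes. In neither list did a gene pass edgeR's test, and 1 in each had an unadjusted p under 0.05.

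**Figure D4:**
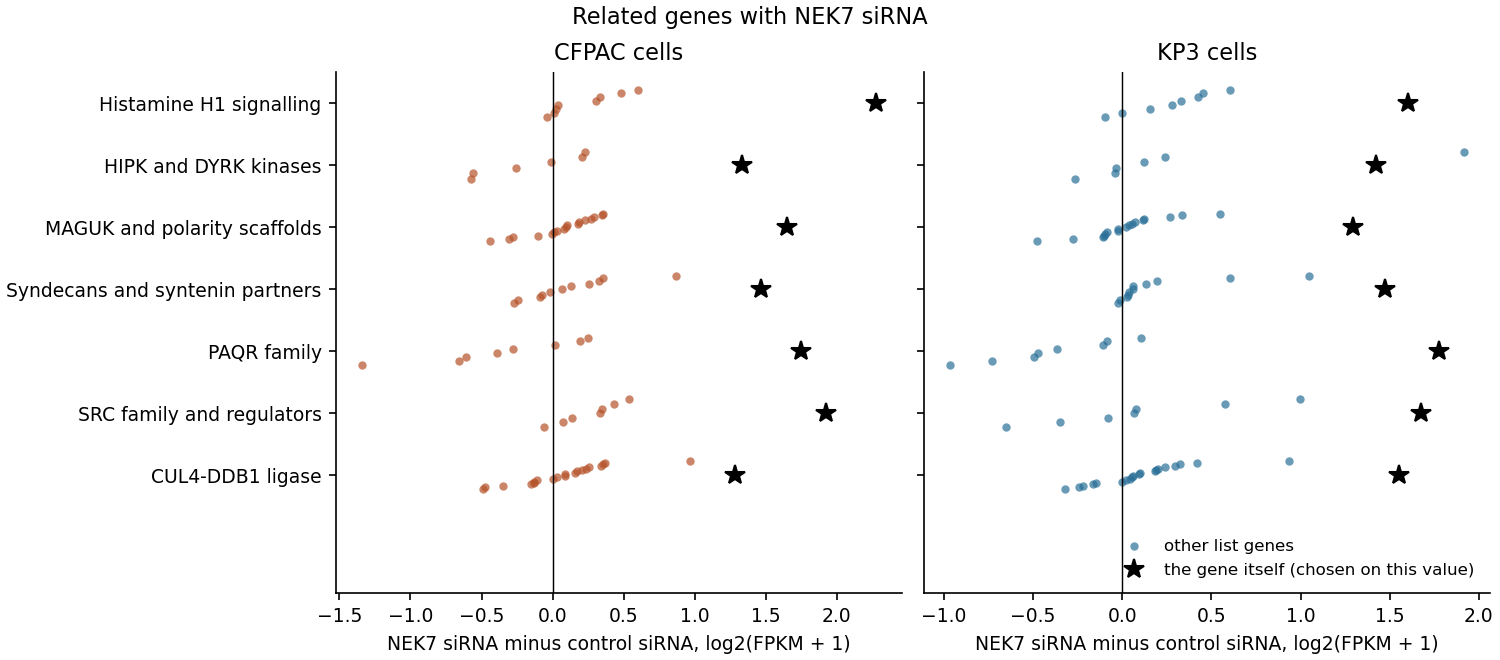
Difference of NEK7 siRNA minus control siRNA on the log2(FPKM + 1) scale for the tested genes of 7 lists, in CFPAC cells (left) and KP3 cells (right); stars are the 7 genes, which were chosen on this value, and dots the other genes of each list. SDC4 (0.87 and 1.04) is the dot nearest to its star in both lines for the syndecan list, and ADIPOR1 (-1.34 and -0.73) is the lowest dot of the PAQR list in CFPAC.

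The nearest tested genes on either side of the 7, and those overlapping them, were 17 genes. With NEK7 siRNA their differences from control ran from -0.30 to 0.39 in CFPAC cells and from -0.34 to 0.98 in KP3 cells, with medians of 0.09 and 0.11. In both lines 8 were higher (7 under median-ratio scaling) and 3 lower, beside 33.9% and 25.6% of all tested genes. Of the neighbours, 0 of 17 were at least 1.5-fold higher in both, against 0.638% of all tested genes. With NEK6 siRNA 10 were higher in both lines (8 under median-ratio scaling) and 3 lower, beside 27.6% and 27.7% of all tested genes. None passed edgeR's test with either siRNA, 1 had an unadjusted p under 0.05 with NEK7 siRNA and 2 with NEK6 siRNA, limma called 0, and DESeq2 called 0 with NEK7 siRNA and 1 (KREMEN2) with NEK6 siRNA. METTL8, which overlaps the start of DCAF17 on the opposite strand, differed by -0.10 and 0.25 with NEK7 siRNA. NSMAF, 649 bases from SDCBP, differed by 0.24 and 0.21, and ATG7, an autophagy gene 8752 bases from HRH1, by 0.24 and -0.09. The exceptions with the largest values were a record 728 bases from YES1, AP000894, which rests on 99 counts with NEK7 siRNA and 31 with control siRNA in KP3 (0.14 in CFPAC and 0.98 in KP3), and KREMEN2, a Dickkopf receptor gene 890 bases from PAQR4 (0.39 and 0.50).

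Within 100000 bases on each side of PAQR4, a window chosen after the values were seen, the 21 other records were lower in sum. Their sum was lower by 144 CPM in CFPAC and 140 in KP3 with NEK7 siRNA, where PAQR4 was higher by 46.7 and 47.1 CPM. Most of it was TNFRSF12A, a receptor of the TNF family named here after its values were seen, which was lower by 97.1 and 129 CPM. With NEK6 siRNA the sum was lower by 93.0 CPM in CFPAC and 8.04 CPM in KP3, where PAQR4 was higher by 43.5 and 0.201 CPM. TNFRSF12A differed by -46.508 CPM in CFPAC and by -23.592 CPM in KP3 with NEK6 siRNA. It was thus lower in KP3 too, where PAQR4 stayed near its control level. Whether the lower sum and the PAQR4 level are linked was not tested. In the same window around each of the other 6 genes, the sum of other records differed with NEK7 siRNA by 5.05 to 53.4 CPM in CFPAC and by -1.05 to 5.59 CPM in KP3. With NEK6 siRNA those sums differed by -10.5 to 164 CPM in CFPAC, the highest around DCAF17, and by -5.42 to 9.50 CPM in KP3. The PAQR4 window was singled out after these values were seen.

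**Figure D5:**
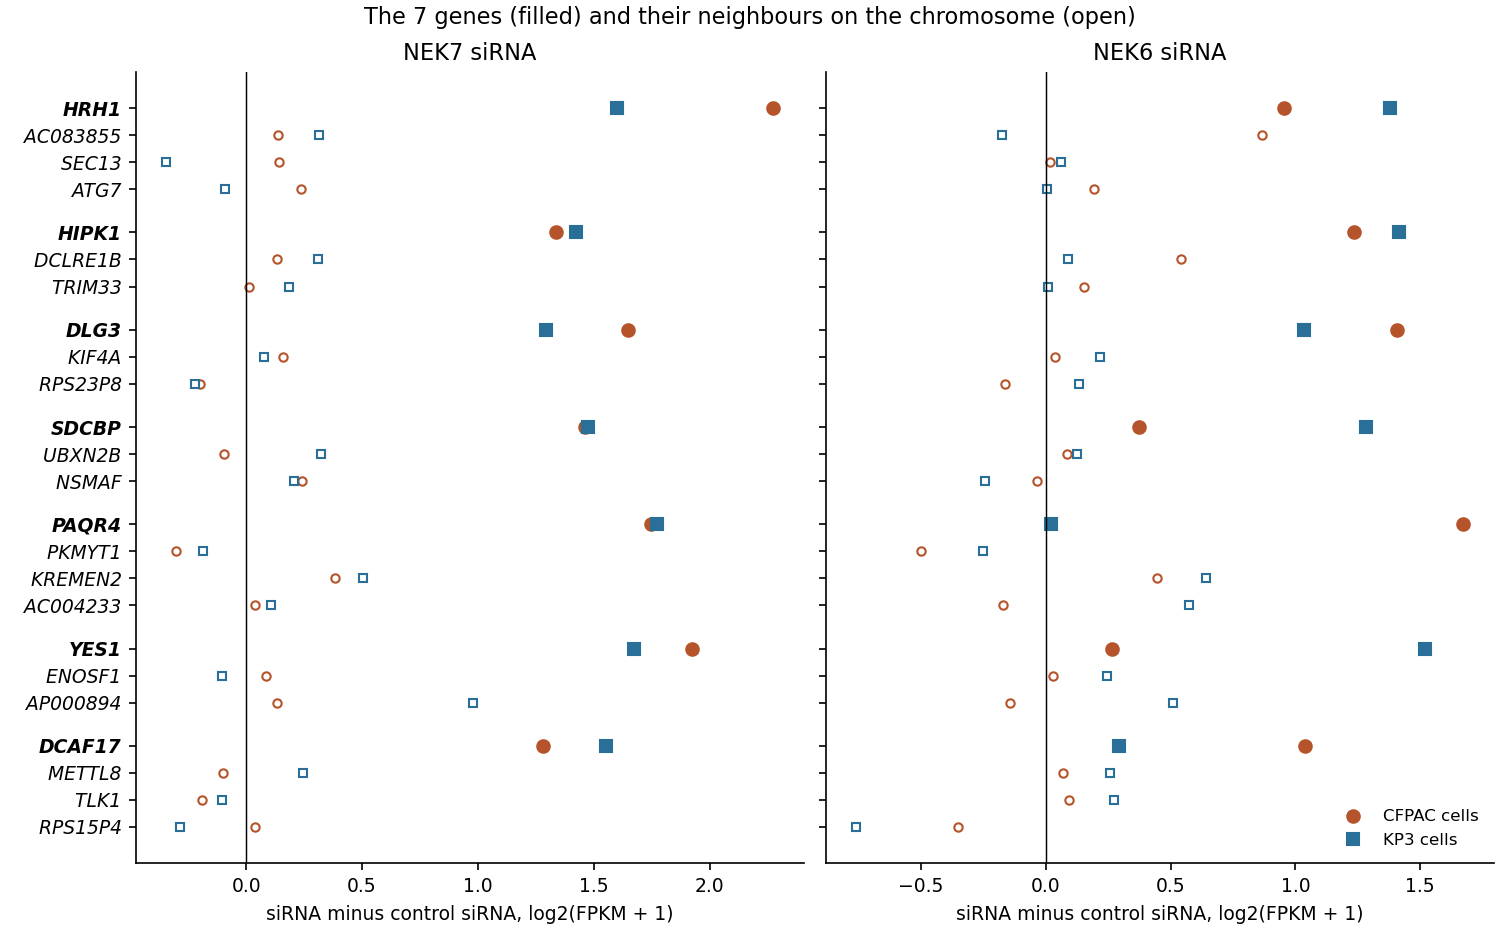
Difference from control siRNA on the log2(FPKM + 1) scale for the 7 genes (filled symbols, bold names) and their nearest and overlapping tested genes (open symbols), with NEK7 siRNA (left) and NEK6 siRNA (right), in CFPAC cells (circles) and KP3 cells (squares). With NEK7 siRNA the neighbours lie between -0.34 and 0.98 and the 7 genes at 1.28 and above.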

How the data were processed

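RNA sequencing of 6 libraries was used. Per the labels' protocols, 5 ug of total RNA per library was taken through oligo(dT) Dynabeads. The submitters' processing notes name cutadapt 1.9, HISAT2 2.0.4, StringTie 1.3.4d and edgeR without saying what each did. The authors deposited whole-number counts per gene without normalization, and FPKM values of the same genes, per the file headers. The build of the deposited coordinates is not stated in these sources; 32211 of the 33097 ids are in GENCODE v29 (GRCh38), and 32176 of those overlap it on the same chromosome and strand. Where a name stood on more than 1 record (1971 names), the record with the most counts was used for a listed gene.

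The genes and the gene lists were chosen with earlier results of these data known. edgeR 4.0.16 (R 4.3.3) fitted the counts of all 6 libraries with TMM scaling and line and siRNA as factors, for 14582 genes that reached 1 FPKM somewhere. That leaves 2 residual degrees of freedom, with a common dispersion of 0.0685 (biological coefficient of variation 26.2%). Quasi-likelihood p-values were adjusted across those genes (Benjamini-Hochberg) and called under 0.05. Replication is lacking, so p-values measure the spread that line and siRNA as additive factors leave. That spread may be technical or a response to siRNA that differs between the lines, which cannot be told apart here. Within a line, differences were of log2(FPKM + 1), which understates the change of low genes, with no test. Intervals at 95% are Poisson for levels and from counting errors of the log ratio for ratios, and cover counting error only.

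Named genes were the 7, NEK6, NEK7 and NEK9, up to 4 genes per list with the largest mean absolute difference, the neighbours and overlapping genes, and for each of the 7 the 2 genes nearest in pattern; others are marked where named. NEK9, a NEK6 and NEK7 activator, differed by 0.13 in CFPAC and 0.20 in KP3 with NEK7 siRNA and by 0.19 and 0.07 with NEK6 siRNA. Promoter windows come from the RefSeq table of GRCh38.p14. Alternatives were DESeq2 1.42.0, limma 3.58.1, DESeq2 size factors, other filters, a pseudocount of 0.1, median-ratio scaling and each library left out. Counts were simulated over 14582 genes with additive effects and the common dispersion for every gene. Only genes above a minimum mean count were changed, and results were summed over repeated runs. For NEK7 siRNA edgeR called 5 of 182 genes made 1.5-fold different, 24 of 206 at 2-fold and 191 of 212 at 4-fold, with 9 false calls. For the lines it called 2 of 199, 57 of 209 and 191 of 192, with 8 false calls. These shares need not hold for the real genes, none of which passed for either siRNA. Tables and plots used Python 3.11.15, pandas 2.3.3 and matplotlib 3.10.9.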

Additional observations from a re-analysis of the deposited data

Results flagged for a closer look

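None of the 7 genes, but 6 of the 59 named genes examined, moved opposite ways in CFPAC and KP3 with the same siRNA. Each of the 6 did so beyond its counting interval and by at least 0.25 on the log2(FPKM + 1) scale. That minimum was set after the values were seen. For NEK7 siRNA the 7 genes could not move opposite ways, since they were selected as raised in both lines. The share over all tested genes was not computed, and some of the 59 were named for their large differences. With NEK7 siRNA minus control siRNA, DYRK2 differed by -0.2582 in CFPAC and 1.916 in KP3, DCAF10 by -0.4747 and 0.9353, MPP6 by 0.268 and -0.4793, and YAP1 by 0.536 and -0.3496. With NEK6 siRNA minus control siRNA, MAGI3 differed by -0.2893 in CFPAC and 0.3036 in KP3, and PDCD6IP by 0.3785 and -0.3784. With 1 library for each line and siRNA, the difference between the lines was not tested for any of them.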

How the results depend on the processing

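No paired analysis was possible because the labels carry no replicate numbers; the cell line already serves as the block for both siRNAs. The call that DLG3 was higher in CFPAC held under every alternative with a test. The count of genes that differed between the lines was 7730 to 9216 under other tools and filters and 6422 to 6529 without each library, beside 8223. The NEK7 siRNA count of 0 became 369 with DESeq2 and ran from 0 to 1 without each library. That 1, without the CFPAC library of NEK7 siRNA, was AC012321 (1, 2793 and 3748 counts in CFPAC and 4361, 1 and 1 in KP3 with NEK7, NEK6 and control siRNA). The NEK6 siRNA count of 0 became 288 with DESeq2 and stayed between 0 and 0 without each library. The 93 genes at least 1.5-fold higher in both lines with NEK7 siRNA became 338 with a pseudocount of 0.1 and 54 at a mean FPKM of at least 5, and the 97 with NEK6 siRNA became 290 and 54. HRH1, HIPK1 and DCAF17 fall below that mean. The line difference of HRH1, 0.23, reversed to -0.20 without the CFPAC library of NEK7 siRNA and to -0.22 without that of KP3, within a range of -0.22 to 0.76. The PAQR4 difference with NEK6 siRNA in KP3, 0.02, reversed to -0.0044 under median-ratio scaling. With a pseudocount of 0.1, the HRH1 differences became 4.70 in CFPAC and 3.94 in KP3 with NEK7 siRNA and 2.83 and 3.62 with NEK6 siRNA, and those of DCAF17 2.32 and 2.28 with NEK7 siRNA and 1.98 and 0.53 with NEK6 siRNA; ranks and pattern distances were not recomputed there. Without each library the line difference ran from 0.11 to 0.60 for SDCBP, 0.20 to 1.0 for YES1, -0.88 to -0.07 for DCAF17, 0.07 to 1.02 for PAQR4, -0.15 to -0.04 for HIPK1 and 1.19 to 1.31 for DLG3; SDCBP, YES1 and DCAF17 passed without either library of NEK6 siRNA. Each such fit leaves 1 siRNA with a single library, taken to vary like the others. For these results the cause was not tested. Depth limits HRH1 most, with 25 and 21 counts in the control libraries.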
